A study of Mus musculus with 8 samples.

Results

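The genes described here are 42 members of the Wnt pathway: all 19 Wnt ligands, 12 receptors and co-receptors, 8 intracellular effectors and 3 secreted inhibitors. They were chosen by name from the pathway, not by a measured value, although earlier results of these data were known. Each was found among the 37273 genes that the GENCODE annotation of the mouse build mm9 places on the autosomes, X and Y. The measurement is the binding of BRG1, the ATPase that drives SWI/SNF remodelling of chromatin, in whole hearts of adult mice after myocardial infarction (MI), read by chromatin immunoprecipitation and sequencing (ChIP-seq).

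C57BL/6 mice, 10 to 12 weeks old by the sample labels and somewhat older by the methods of the study, were given daily intraperitoneal injections of thymosin β4 (Tβ4, 12 mg per kg), an actin-binding peptide that primes the adult epicardium, or of PBS, for 1 week. The left anterior descending artery was then tied off permanently to cause MI on day 0, further injections followed on days 0 and 2, and hearts were taken on day 4. Each group gave 2 BRG1 ChIP libraries and 2 input libraries, 8 in all. The values below come from 1 list, the 524614 regions in which BRG1 exceeded input in Tβ4-primed, injured hearts. The list gives where each region starts and ends, with neither heights nor p-values. It does not separate the duplicates, so that depth and the spread between replicates are unknown. PBS-primed hearts were not analysed here, so the effect of Tβ4 priming was not tested. Chromatin came from whole hearts, so the cell types that carry a region cannot be told apart.

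Wnt proteins are secreted, lipid-modified ligands that bind Frizzled receptors, alone or with the co-receptors LRP5 and LRP6. In the β-catenin branch, this binding halts a destruction complex built on Axin and APC, and β-catenin then enters the nucleus and joins the DNA-binding factors of the TCF/LEF family; other branches act through cell polarity and calcium without β-catenin. In the heart, Wnt signals take part in early cardiac specification and in the formation of the epicardium and coronary vessels, and the pathway is active again in scar-forming cells after injury.

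Promoter sequence inside BRG1 regions is shown for 4 members whose region lay over the transcriptional start site (TSS), to let the reader see how different these promoters are. They are the most covered ligand (Wnt2), the ligand with the lowest GC content at such a TSS (Wnt8b), the most covered receptor (Fzd7) and the effector with a TCF/LEF match (Tcf7). Each sequence is the part of the 250 bases upstream of the TSS that lay inside the region, read from mm9 and written 5′ to 3′ on the strand of the gene. The positions are chr6:17980586-17980835 on the minus strand for Wnt2, and chr19:44567712-44567961 on the plus strand for Wnt8b. Those of Fzd7 and Tcf7 are chr1:59538741-59538990 on the plus strand and chr11:52096682-52096931 on the minus strand. Capitals mark letters of a TCF/LEF motif (CTTTGAA or CTTTGAT, searched on both strands).
Wnt2: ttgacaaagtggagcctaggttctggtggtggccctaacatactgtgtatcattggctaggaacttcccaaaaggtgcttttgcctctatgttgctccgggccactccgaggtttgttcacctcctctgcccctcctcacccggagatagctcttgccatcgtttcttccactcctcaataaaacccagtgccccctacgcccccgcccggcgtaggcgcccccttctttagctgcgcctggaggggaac
Wnt8b: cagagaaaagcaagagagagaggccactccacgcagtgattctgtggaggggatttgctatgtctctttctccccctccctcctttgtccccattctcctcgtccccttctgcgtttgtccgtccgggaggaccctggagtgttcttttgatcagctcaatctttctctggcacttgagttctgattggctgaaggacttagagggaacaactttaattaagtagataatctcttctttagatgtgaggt
Fzd7: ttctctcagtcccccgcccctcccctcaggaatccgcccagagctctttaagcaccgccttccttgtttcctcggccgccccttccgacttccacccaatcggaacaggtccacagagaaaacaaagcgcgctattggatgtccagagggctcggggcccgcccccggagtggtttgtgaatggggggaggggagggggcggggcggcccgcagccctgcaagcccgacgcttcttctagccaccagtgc
Tcf7: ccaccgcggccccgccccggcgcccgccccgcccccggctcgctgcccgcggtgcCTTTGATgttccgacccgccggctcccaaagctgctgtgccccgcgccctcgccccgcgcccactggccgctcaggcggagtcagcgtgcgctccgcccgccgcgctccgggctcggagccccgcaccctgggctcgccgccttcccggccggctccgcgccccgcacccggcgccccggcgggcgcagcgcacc
GC content ran from 48.4% in the Wnt8b sequence, with 5 CpG dinucleotides, to 83.6% in that of Tcf7, with 43. Wnt2 stood at 57.2% and Fzd7 at 65.2%. In all, TCF/LEF letters were found in the 250 bases upstream of 3 of 42 members (Wnt8a, Wnt11 and Tcf7), a share of 7.14%, against 7.13% of all protein-coding promoters of that length. Letters of the C/EBP motif (TTGCNNAA, both strands) were found at 4 members (Wnt3, Wnt5a, Fzd1 and Sfrp2), 9.52% against 9.16%. These matches are descriptions of letters, and binding of either factor was not tested.

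The members as a set were touched by BRG1 regions about as often as other genes. The gene window, meaning the gene body with 5 kb added at either end, held at least 1 region in 42 of 42 members, against 95.1% of all genes. Within 5 kb of the TSS, taken as the 5′ end of the gene, a region was found for 37 members (88.1%), against 89.9% of all genes. A region lay over the TSS itself for 11 members, or 26.2% (95% Wilson interval 15.3 to 41.1%), against 24.7% of all genes and 24.2% of protein-coding genes. These 11 were Wnt2, Wnt2b, Wnt7a, Wnt7b, Wnt8b, Fzd2, Fzd6, Fzd7, Fzd8, Lef1 and Tcf7. The interval covers counting error only and treats genes as independent. The regions of the list cover 25.8% of all bases of the autosomes, X and Y. A region was thus found over a TSS about as often as over any base of these chromosomes.

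Many genes have more than 1 annotated transcript start. With any start allowed, 17 members (40.5%) had a start inside a region, against 32.8% of all genes and 37.3% of protein-coding genes. The 6 members that joined were Wnt5a, Wnt5b, Fzd3, Ctnnb1, Axin2 and Tcf7l2. At Axin2, a negative regulator that β-catenin itself induces, 3 of 7 annotated starts were covered. At Ctnnb1, which encodes β-catenin, the count was 1 of 13.

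The covered share is the percentage of the gene window that lay inside regions. Its median was 28.3% over the members, 24.0% over all genes and 25.2% over protein-coding genes. Each member was given a percentile among 200 genes of the most similar length. Of the 42, 22 (52.4%) lay above the median of those genes, against 50.1% of all genes. A percentile of 90 or more, a threshold chosen after the values were seen, was reached by 11 members (26.2%), against 10.4% of all genes. They were 7 ligands (Wnt2, Wnt2b, Wnt3, Wnt4, Wnt5a, Wnt7b and Wnt8b), 3 receptors (Fzd3, Fzd6 and Fzd7) and Ctnnb1. Among 50 genes nearest in GC content of the 1000 nearest in length, Fzd6 had a percentile of 86, while Fzd5 and Fzd8 reached 90. At the other end, 2 members (Wnt10b and Fzd9, 4.76%) had a percentile of 10 or less, against 10.7% of all genes. Fzd9 stood at 11 among 200 protein-coding genes and at 14 with that GC matching, where Apc and Axin2 reached 10. Whether such counts arise by chance was not tested.

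**Figure D1:**
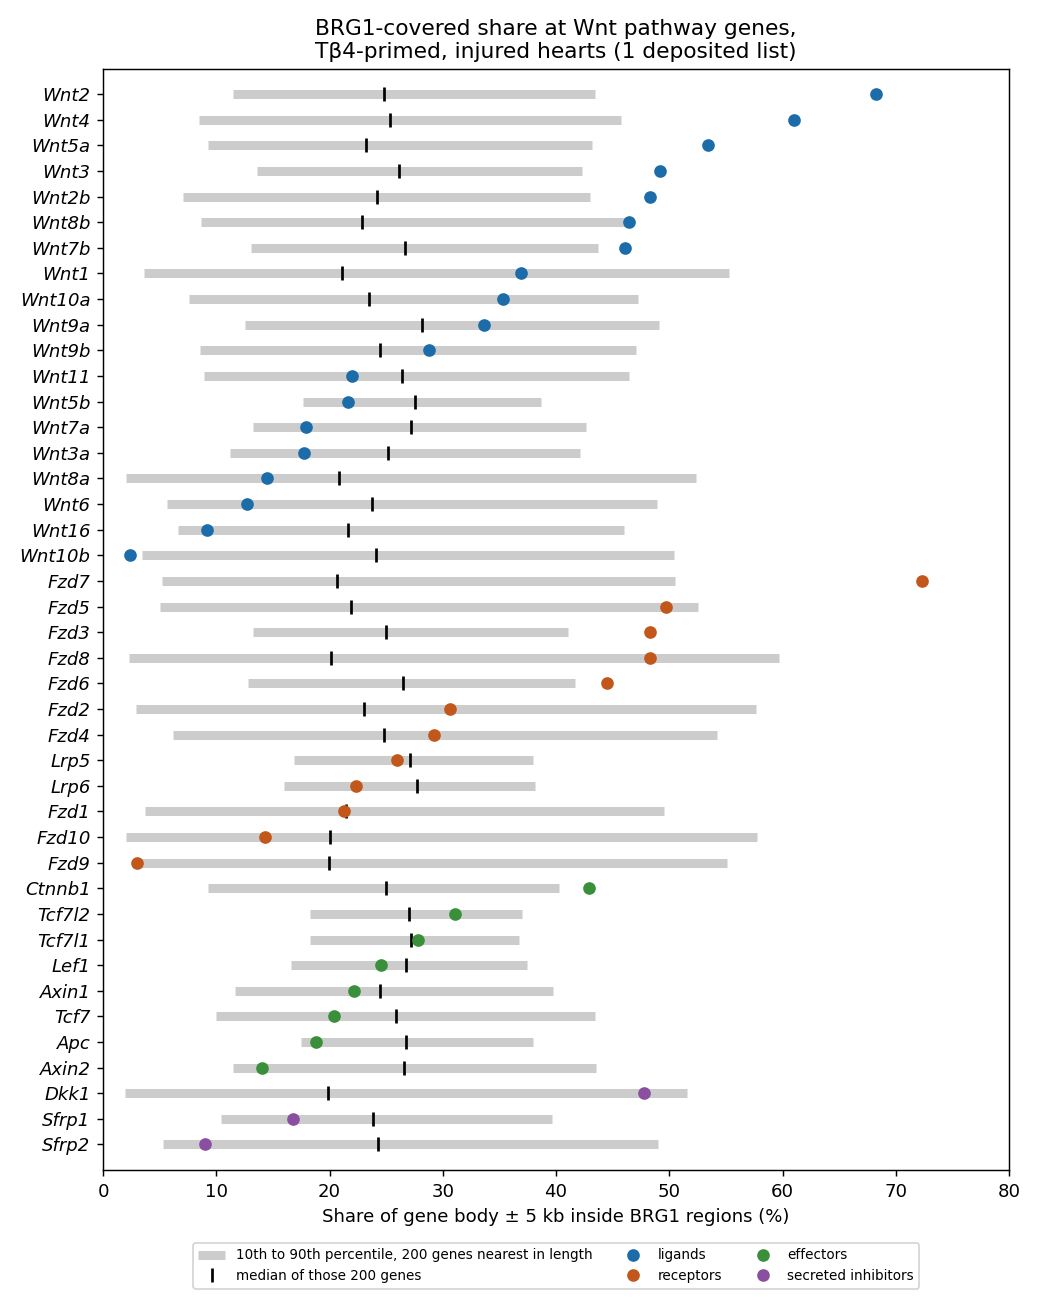
Covered share of the gene window (%, horizontal axis) for the 42 members, ordered by role (coloured points), with the 10th to 90th percentile (grey bar) and the median (black mark) of the 200 genes nearest in length. Wnt2, at 68.3%, and Fzd7, at 72.3%, lie far beyond their grey bars, whereas Wnt10b lies at 2.38%.

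By number of regions, fewer members stood at the upper end. The median density, in regions per kb of the gene window, was 0.229 over the members, 0.222 over all genes and 0.228 over protein-coding genes. By density, 5 members (Wnt9a, Wnt11, Fzd5, Fzd7 and Tcf7l1) reached a percentile of 90, or 11.9% against 10.1% of all genes. Another 5 (Wnt5a, Wnt6, Wnt10b, Wnt16 and Lrp6) were at 10 or less, against 9.93%. Fzd7 alone was at 90 or more on both measures. Across the 42 members the Spearman correlation of density with covered share was 0.613, and across protein-coding genes 0.507. Both measures are read from the same regions, and genes are not independent replicates.

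**Figure D2:**
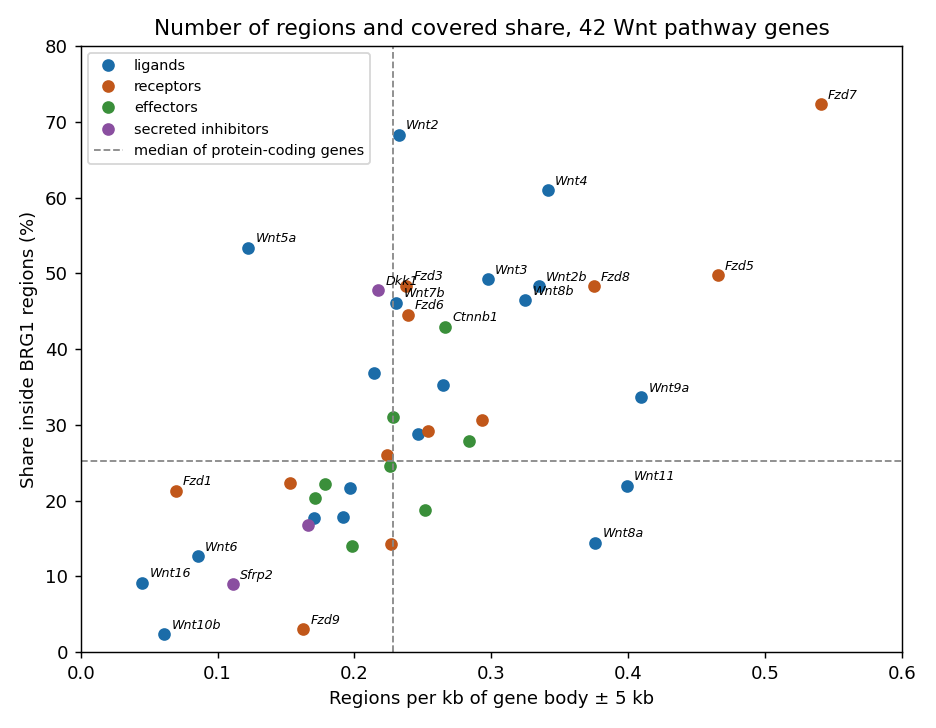
Regions per kb (horizontal axis) and covered share in % (vertical axis) of the gene window for the 42 members, coloured by role, with the medians of protein-coding genes as dashed lines. Wnt5a combines 0.122 regions per kb with a covered share of 53.4%, and Wnt11 combines 0.399 regions per kb with 22.0%.

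The ligands had a median density of 0.232 regions per kb and a median covered share of 33.7%, against 24.0% for all genes. The ligand share depended on the window. Over the gene body alone the median was 25.3%, against 19.0% for all genes and 23.7% for protein-coding genes, not matched on length. With flanks of 10 kb the ligand median was 27.3%, and with only regions of at least 600 bp it was 23.3%. A region lay within 5 kb of the TSS for 18 of 19 (89.9% of all genes) and over it for 5 of 19 (24.7% of all genes). Their covered shares ran from 2.38% to 68.3%, and 11 of 19 lay above the median of genes of their length (50.1% of all genes).

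Wnt2, a β-catenin-activating ligand made in the heart-forming mesoderm and the lung, was the most covered ligand. The gene lies at chr6:17938940-17980585 on the minus strand, and 12 regions covered 68.3% of its window, against a median of 24.8% for genes of its length (percentile 100). A region of 7230 bp ran from 4684 bp upstream to 2545 bp downstream of the TSS, and 94.9% of the bases within 5 kb of the TSS were covered. The 5 kb downstream of the gene lay wholly inside regions. Both annotated starts were covered.

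Wnt2b, its closest relative, at chr3:104747723-104764627 on the minus strand, had 9 regions and a covered share of 48.3% (percentile 93.5). The coverage lay mainly outside the gene. The upstream and downstream 5 kb were 95.8% and 82.6% covered, the gene body 24.0%. The region over its TSS spanned 3840 bp, of which 307 bp lay downstream.

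Wnt4, which directs kidney tubule and female gonad formation, lies at chr4:136833404-136855641 on the plus strand, held 11 regions in its window and had a covered share of 61.0% (percentile 98). Its TSS lay in a gap between regions, 105 bp from the nearest region upstream and 256 bp from the nearest downstream. Wnt3, needed for gastrulation and described because of its rank, at chr11:103635464-103679271 on the plus strand, had the same arrangement. Its TSS was 285 bp and 16 bp from the nearest regions, while 91.6% of the bases within 5 kb were covered. Its 16 regions gave a covered share of 49.2% (percentile 96).

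Wnt5a, a ligand of the β-catenin-independent branch that drives tissue elongation, showed few regions, of which 1 was wide. Over chr14:29317936-29340633 on the plus strand there were 4 regions, a density percentile of 10, yet the covered share was 53.4% (percentile 96). A single region of 14700 bp, which began 13094 bp downstream of the TSS and ended beyond the gene, made up 44.7% of the window. Around the TSS, 7.80% of the bases within 5 kb were covered, and none of the upstream 5 kb was. By contrast, the upstream 5 kb of Wnt2b, Wnt3 and Wnt8b was 86.8 to 95.8% covered.

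Wnt7b, which supports lung growth and vessels of the brain, lies at chr15:85365869-85412251 on the minus strand. It had 13 regions and a covered share of 46.1% (percentile 93.5), with 2250 bp of region over the TSS and all 3 annotated starts covered. Wnt7a, its closest relative and a signal for dorsal limb identity, lies at chr6:91313975-91361357 on the minus strand and differed. A region of 570 bp lay over its TSS, but the covered share was 17.9% from 11 regions (percentile 18). Wnt8b, a ligand of the embryonic forebrain, at chr19:44567962-44588763 on the plus strand, had 10 regions, a region of 1020 bp over the TSS and a covered share of 46.5% (percentile 90).

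The lowest shares among ligands belonged to Wnt10b, Wnt16 and Wnt6, none of which had a region inside the gene body. Wnt10b, an inhibitor of fat cell formation, at chr15:98602184-98608581 on the minus strand, had 1 region of 390 bp, 1359 bp upstream of the TSS, and a covered share of 2.38% (percentile 7.5). Wnt16, a regulator of cortical bone, at chr6:22238227-22250409 on the plus strand, had 1 region of 2040 bp, 2828 bp upstream, and 9.20% (percentile 15.5). Wnt6, made in epithelia of the embryo, at chr1:74818466-74831893 on the plus strand, had no region within 5 kb of its TSS, and the nearest lay 9267 bp upstream. Its 2 regions, both downstream of the gene, gave 12.7% (percentile 19). The share of genes without a region in the body was 14.3% among members (6 of 42: these 3, Fzd1, Fzd10 and Sfrp2), against 31.6% of all genes and 15.9% of protein-coding genes.

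The remaining ligands lay between. Wnt1, a midbrain organiser, Wnt10a, which acts in teeth and skin, Wnt9a, which acts in joints, and Wnt9b, which induces the kidney tubule, had covered shares of 36.9%, 35.3%, 33.7% and 28.7%, each above the median of genes of their length. Wnt11, a β-catenin-independent ligand of the developing heart and kidney, Wnt5b, the closest relative of Wnt5a, Wnt3a, a ligand of the early mesoderm, and Wnt8a, a ligand of the early embryo, had 22.0%, 21.6%, 17.8% and 14.5%, each below that median. Wnt11 and Wnt9a had many regions for their length. Their 12 and 15 regions gave density percentiles of 92 and 93, but their median region was 345 bp and 360 bp long, against 600 bp in the whole list. In Wnt3a a region began 4795 bp downstream of the TSS, and the nearest upstream was 5706 bp away.

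**Figure D3:**
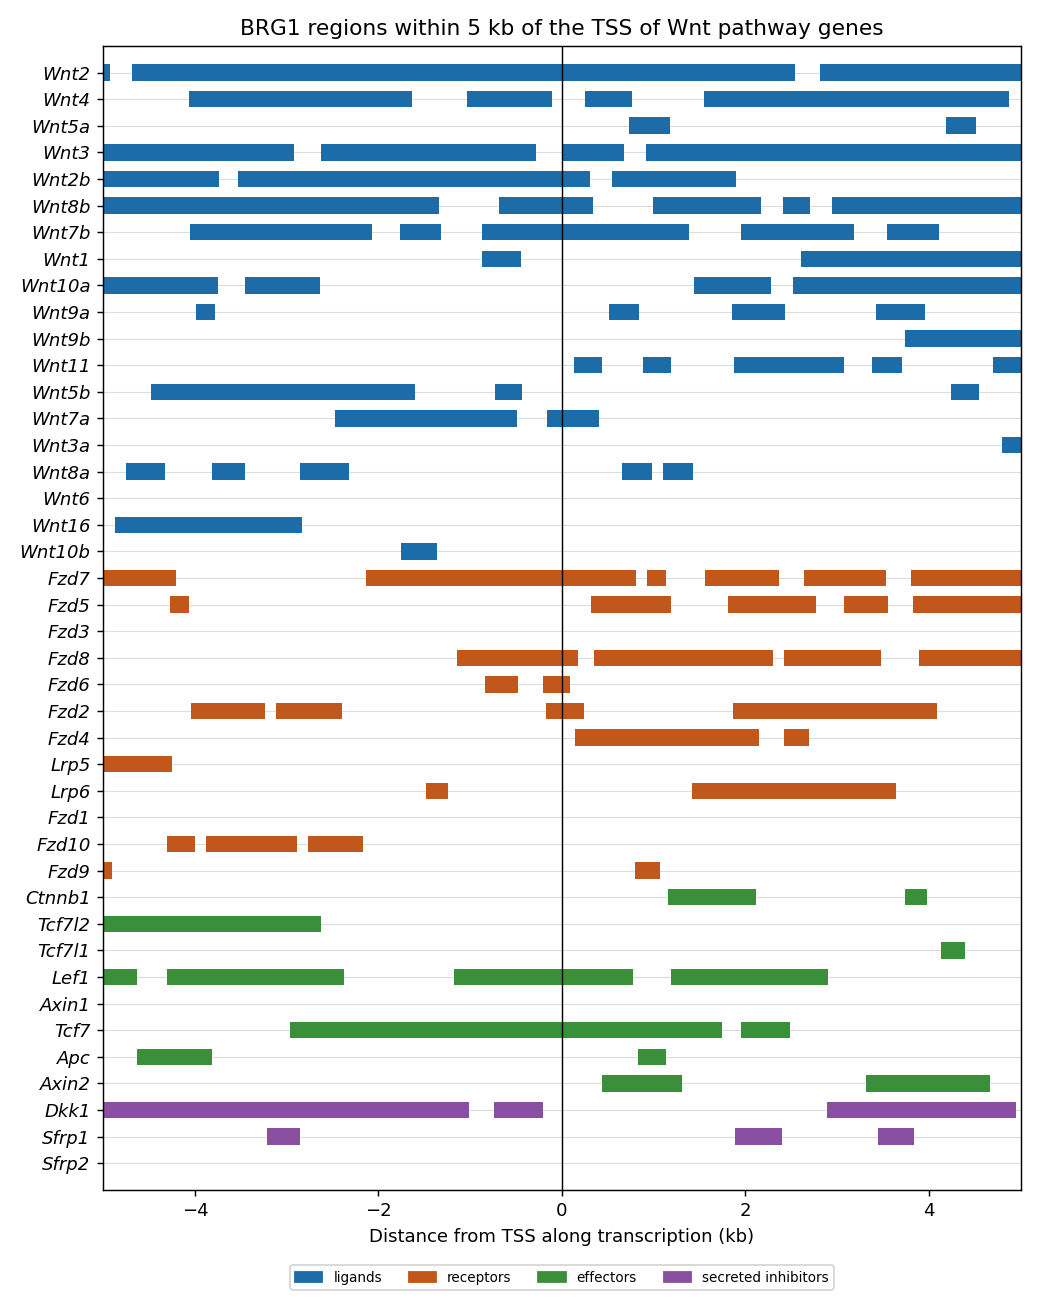
BRG1 regions (bars, coloured by role) within 5 kb of the TSS of the 42 members, with distance along the direction of transcription in kb on the horizontal axis and genes in order of role and covered share. Wnt2 is covered almost throughout, the TSS of Wnt3 and Wnt4 lie in narrow gaps, and the rows of Wnt6, Fzd1, Fzd3, Axin1 and Sfrp2 are empty.

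The 10 Frizzled receptors and the co-receptors Lrp5 and Lrp6 had a median density of 0.238 regions per kb and a median covered share of 29.9%. Within 5 kb of the TSS 10 of 12 had a region, against 89.9% of all genes, and over it 4 of 12, against 24.7%. Most Frizzled genes are short and have few introns, and the choice of window mattered here. Over the gene body alone the median was 45.6%, against 19.0% for all genes and 23.7% for protein-coding genes. These medians were not matched on length, and the receptor bodies ranged from 0% covered at Fzd1 and Fzd10 to 91.0% at Fzd8.

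Fzd7, a receptor of stem and progenitor cells, had the highest covered share of the 42 members. The gene lies at chr1:59538991-59543791 on the plus strand, and 8 regions covered 72.3% of its window, against a median of 20.6% for genes of its length (percentile 98.5), and its density was 0.541 regions per kb (density percentile 98). The region over its TSS was 2940 bp long and reached 2131 bp upstream. Fzd5, which is needed for vessels of the yolk sac, at chr1:64777134-64784324 on the minus strand, was next among receptors with 8 regions and 49.7% (percentile 88). Its nearest region lay 315 bp downstream of the TSS.

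Fzd3 and Fzd6, related receptors that act together in planar cell polarity, carried their coverage deep in the gene. Fzd3, at chr14:65819863-65881300 on the minus strand, had no region within 5 kb of the TSS, and the nearest began 7571 bp downstream. Yet its 17 regions gave a covered share of 48.3% (percentile 99), of which a mainly intronic region of 14370 bp, from 28361 to 42730 bp downstream of the TSS, made up 20.1% of the window. At Fzd6, at chr15:38837879-38869732 on the plus strand, the region over the TSS was the shortest of the 11, at 300 bp, and 6.60% of the bases within 5 kb of the TSS were covered. A region of 8970 bp, over introns, exons and the 3′ end of the gene, lay from 24061 to 33030 bp downstream, and the 10 regions together gave 44.5% (percentile 92.5).

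**Figure D4:**
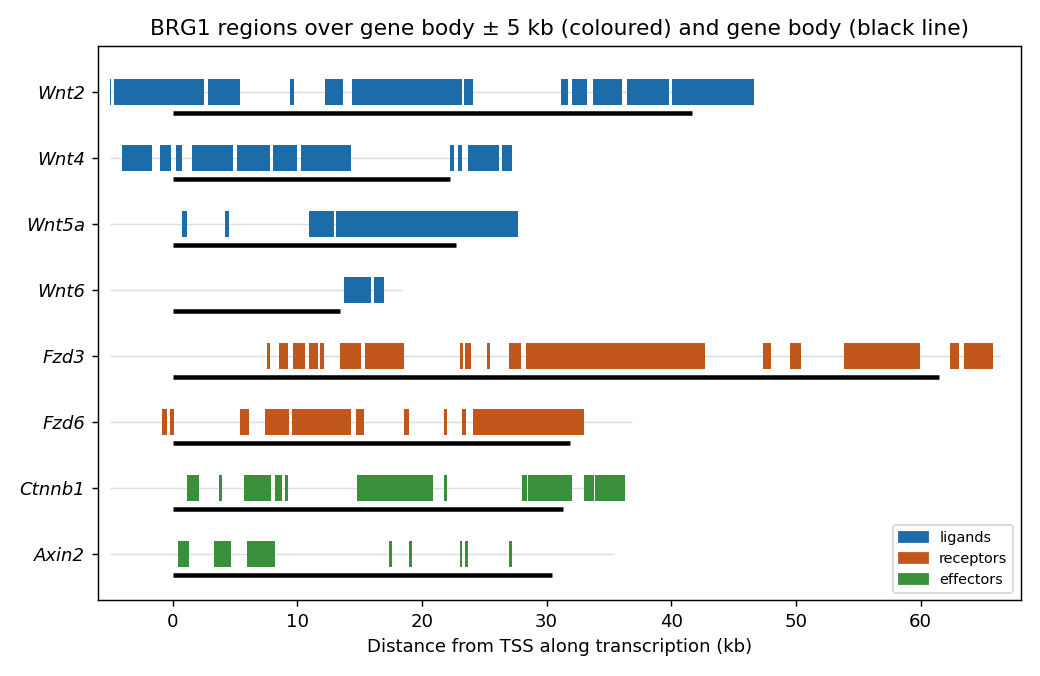
BRG1 regions (coloured bars) over the gene body (black line) and its flanks of 5 kb in 8 members, with distance from the TSS along transcription in kb on the horizontal axis. Coverage surrounds the TSS at Wnt2 and Wnt4, lies downstream at Wnt5a, Fzd3 and Ctnnb1, and is sparse at Wnt6 and Axin2.

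Fzd2, a receptor for Wnt5a, at chr11:102465745-102469372 on the plus strand, had 4 regions, with 420 bp of region over the TSS and a covered share of 30.6% (percentile 68.5). Fzd8, a receptor of the developing kidney and brain, at chr18:9212854-9216199 on the plus strand, had 5 regions, with 1320 bp of region over the TSS. Its body was 91.0% covered and its window 48.3% (percentile 84.5). Fzd4, the receptor for Norrin in retinal vessels, stood at 29.2%, and its nearest region began 144 bp downstream of the TSS.

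The least covered receptors were Fzd9, Fzd10 and Fzd1. Fzd9, a receptor of neural and bone precursors, at chr5:135724808-135727100 on the minus strand, had 2 regions and a covered share of 3.02% (percentile 10). Fzd10, a receptor of the neural tube, at chr5:129106719-129109968 on the plus strand, had 3 regions, all upstream, and 14.3% (percentile 40). Fzd1, a β-catenin-activating receptor, at chr5:4753842-4758216 on the minus strand, had no region within 5 kb of the TSS. Its 1 region of 3060 bp, 5377 bp downstream of the TSS and beyond the gene, gave 21.3% (percentile 50). The long genes Lrp5 and Lrp6 lay near or below genes of their length, at 26.0% (percentile 45) and 22.3% (percentile 27), with 25 and 20 regions.

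The effectors were the least covered of the 3 main roles. Their median covered share was 23.4%, against 24.0% for all genes, and their median density was 0.227 regions per kb. By covered share, 3 of 8 lay above the median of genes of their length (50.1% of all genes). Of the 8, 7 had a region within 5 kb of the TSS (all genes 89.9%) and 2 over it (all genes 24.7%).

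Both effectors with a region over the TSS encode DNA-binding partners of β-catenin. Lef1, at chr3:130813389-130927274 on the plus strand, had 28 regions and a covered share of 24.5% (percentile 40). Its TSS region was 1950 bp long, and 59.5% of the bases within 5 kb of the TSS were covered. Tcf7, which encodes TCF1 and is best known from T cells, at chr11:52065873-52096681 on the minus strand, had 7 regions. The one over its TSS was its longest, at 4710 bp. All 4 annotated starts of Tcf7 and all 3 of Lef1 were covered. Within 5 kb of the TSS, 52.5% of the bases at Tcf7 were covered, but its body was covered for 10.8% and its window for 20.4% (percentile 32.5).

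The other TCF genes had no region over the TSS. Tcf7l2, which encodes TCF4, at chr19:55816300-56008144 on the plus strand, had 46 regions and a covered share of 31.0% (percentile 73.5). The nearest was 2621 bp upstream of its TSS, and the longest, a mainly intronic region of 9630 bp, began 69740 bp downstream. Its upstream 5 kb was 47.6% covered and its body 31.2%, with 23.8% covered within 5 kb of the TSS. Tcf7l1, which encodes the mainly repressive TCF3, at chr6:72576372-72739248 on the minus strand, had 49 regions, the most of any member. Its density percentile was 91.5 and its covered share 27.8% (percentile 54), with 2.70% covered within 5 kb of the TSS.

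Ctnnb1, at chr9:120838334-120869625 on the plus strand, was the most covered effector, with 11 regions and 43.0% (percentile 92). None of the upstream 5 kb was covered and 77.8% of the downstream 5 kb was, and the longest region, of 6120 bp, lay in intron sequence from 14776 to 20895 bp downstream of the TSS. The window of Ctnnb1 also holds part of Ulk4, and 9 other members have another protein-coding gene in their window: Wnt3, Wnt5b, Wnt8b, Fzd3, Fzd4, Fzd5, Fzd9, Axin1 and Tcf7l1.

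At Axin1, Axin2 and Apc, the destruction complex genes among the members, shares were lower than at Ctnnb1. Axin1, the scaffold of the complex, at chr17:26275631-26332756 on the plus strand, had 12 regions and 22.2% (percentile 38.5), but no region within 5 kb of the TSS. The nearest were 7662 bp upstream and 10309 bp downstream. Axin2, at chr11:108781663-108812097 on the plus strand, had 8 regions and 14.0% (percentile 15.5), with none in either flank. A region of 870 bp began 437 bp downstream of its TSS. Apc, the tumour suppressor that holds β-catenin in the complex, at chr18:34380578-34481843 on the plus strand, had 28 regions and 18.8% (percentile 13). Its regions had a median length of 540 bp, against 285 bp at Axin2, 870 bp at Axin1 and 570 bp over all effectors.

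The 3 secreted inhibitors differed from each other, and none had a region over the TSS (24.7% of all genes). Dkk1, which blocks LRP5 and LRP6, at chr19:30620353-30624155 on the minus strand, had 3 regions and a covered share of 47.8% (percentile 87.5). Its upstream 5 kb was 90.5% covered, and the nearest region ended 205 bp upstream of the TSS. Sfrp1 and Sfrp2 bind Wnt ligands outside the cell. Sfrp1, at chr8:24521974-24560104 on the plus strand, had 8 regions and 16.8% (percentile 24). Sfrp2, at chr3:83570243-83578238 on the plus strand, had 2 regions, none of them within 5 kb of the TSS or in the gene, and 9.00% (percentile 16.5).

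By position within the gene, the members differed most from protein-coding genes downstream. Regions covered 40.6% of the bases in the 5 kb downstream of the members, against 26.3% for protein-coding genes, and 28.9% against 26.5% of the 5 kb upstream. Introns were covered for 28.5% against 27.5%, coding exon sequence for 23.1% against 25.9%, and other exon sequence for 35.6% against 27.2%. Among ligands the downstream share was 49.1%, among receptors 32.4% and among effectors 34.4%. Upstream, the shares were 38.7% among ligands, 15.9% among receptors and 24.1% among effectors. Gene by gene, the downstream side was covered more than the upstream side in 23 of 42 members (54.8%), against 45.2% of all genes. Both sides were equal in 1 of 42 members and in 3064 of 37273 genes, which lowers the share over all genes. The 5 kb downstream of Wnt2 and Wnt5a were wholly covered, as they were for 1.49% of protein-coding genes. This comparison of sides was made after the values were seen.

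**Figure D5:**
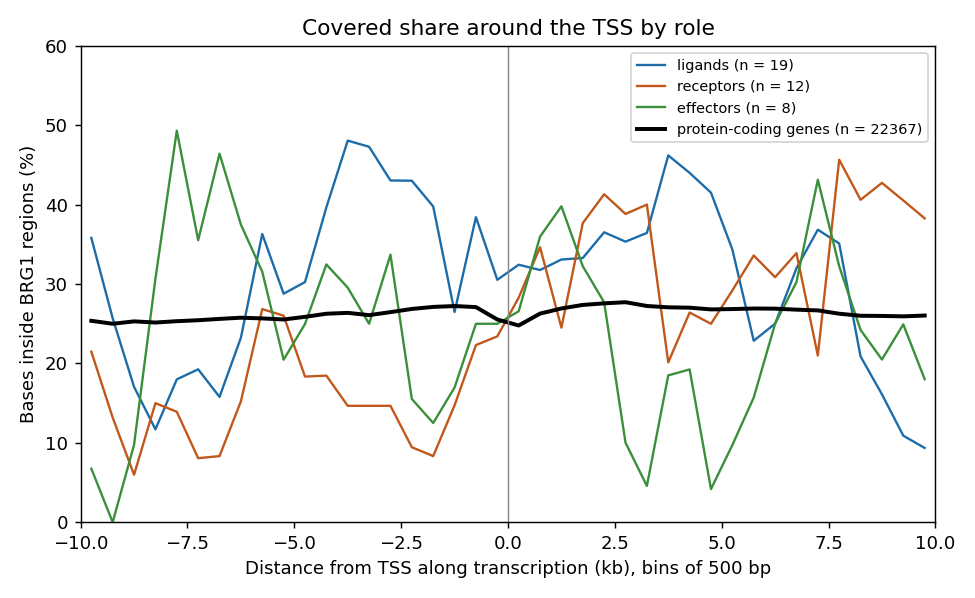
Share of bases inside BRG1 regions (%, vertical axis) in bins of 500 bp against distance from the TSS in kb, for ligands, receptors, effectors and protein-coding genes. The protein-coding line is nearly flat, whereas the lines of the roles rest on 8 to 19 genes and swing widely.

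Members and protein-coding genes with a high covered share more often had a region over the TSS, which is partly so by construction, since that region counts towards the share. Of the 11 members at a percentile of 90 or more, 6 had a region over the TSS (54.5%), as had 54.4% of protein-coding genes at such a rank. Of the other 31 members 5 had one (16.1%), against 20.8% of protein-coding genes. The covered share of members also followed that of the 100 kb on each side, with a Spearman correlation of 0.423 over 42 members and 0.404 over protein-coding genes, the surroundings including the gene itself. With GC content the correlation was -0.10 and with gene length 0.05 over the members.

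Inside the regions of members, TCF/LEF letters occurred 0.430 times per kb, and outside them, in the same windows, 0.379 times per kb. The rates over the whole of mm9 were 0.495 inside and 0.500 outside regions. For receptors the rates were 0.470 inside and 0.339 outside, for ligands 0.364 and 0.356, for effectors 0.450 and 0.418, and for the 3 secreted inhibitors 0.798 and 0.393. C/EBP letters occurred 0.375 times per kb inside and 0.387 outside at members, against 0.508 and 0.512 over the whole of mm9. For ligands these rates were 0.315 and 0.381, for receptors 0.371 and 0.392, for effectors 0.446 and 0.376, and for the secreted inhibitors 0.430 and 0.503.

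Of 59 other genes of the pathway, all found in the annotation, 57 had a region in the window (96.6%, against 95.1% of all genes). Of the 59, 54 had one within 5 kb of the TSS (91.5%, against 89.9%) and 15 over it (25.4%, against 24.7%). Their median covered share was 25.9%, and 3 of 59 reached a percentile of 90 (5.08%, against 10.4% of all genes). At a percentile of 10 or less were 11 of 59, against 10.7% of all genes. Unlike at the members, their downstream 5 kb was covered less on average than their upstream 5 kb, 19.2% against 23.7%. The downstream side was covered more in 23 of 59 (39.0%), against 45.2% of all genes, and both sides were equal in 5. Among 3 genes of Wnt lipidation, export and removal, Wls, which carries Wnt proteins to the cell surface, had 35.1% and Notum, which strips their lipid, had no region. Among 9 R-spondins, their receptors and E3 ligases, the range ran from 11.1% at Rnf43, a ligase that removes Frizzled, to 40.5% at Rspo4, which opposes it. Among 4 other receptors, Ptk7, a catalytically inactive kinase, was lowest at 7.11% and Ror1, a receptor tyrosine kinase for Wnt5a, highest at 32.8%. Of 11 other inhibitors and Kremen genes, Sost, the bone-derived LRP inhibitor, had 1.65% and Kremen2, a receptor of DKK1, 39.6%.

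Among 12 genes of the Dishevelled family and the destruction complex, Nkd2, an antagonist of Dishevelled, was lowest at 12.2% and Ctnnbip1, which keeps β-catenin from TCF, highest at 53.3%. Of the 12, 7 lay above the median of genes of their length, against 50.1% of all genes. In this group Gsk3a had 41.8% and Gsk3b 34.6%, both above that median. Csnk1a1, at 24.0%, and Apc2, at 16.6%, lay below it. Of 8 β-catenin co-factors and Groucho repressors, Pygo2, which ties β-catenin to methylated histones, had 72.0% and Bcl9l, an adaptor between them, 23.1%. In the 7 core genes of planar cell polarity the median was 16.4%, against 24.0% for all genes. Of these, 0 of 7 lay above the median of genes of their length, against 50.1% of all genes. Celsr3, an atypical cadherin, had 4.34% and Vangl2, a membrane scaffold, 24.9%. Of 5 target genes of β-catenin, Sp5, a transcription factor, had no region and Tnfrsf19, of the TNF receptor family, had 37.6%. Myc, a driver of cell growth, had 3.80%. The median of the 5 was 25.3%, and 3 lay above the median of genes of their length, as did 50.1% of all genes.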

How the data were processed

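BRG1 ChIP-seq was made by the authors on duplicate PBS-primed and Tβ4-primed, injured hearts with inputs. They mapped reads with Bowtie 1.0.0 to mm9 and called regions with MACS2 2.0.10. Whether and how duplicates were merged is not given. The methods name bdgcomp, but the list is named like a comparison of conditions at a cut-off of 3.0, so which function made the regions is unknown. The deposited list holds other values than counts: the start and end of each region in bp. Its depth is unknown, so that no precision from depth can be given. Regions were counted with at least 1 bp of overlap over each gene with flanks of 5 kb, using Python 3.11.15 with pysam 0.24.0, pandas 2.3.3, numpy 2.4.6 and scipy 1.17.1; figures were drawn with matplotlib 3.10.9. The counting was tested on simulated data. For Fzd10, which has 2 entries in the annotation, the protein-coding one was used. Positions are counted from 1. Members and lists were chosen with earlier results of these data known. The genes described with position and rank are those with a region over the TSS, those without a region within 5 kb of it, and the 3 highest and 3 lowest covered shares in each role; of other pathway genes, the highest and lowest of each role. The remaining members are given more briefly, so that all 42 are accounted for. Myc, Gsk3a, Gsk3b, Csnk1a1, Apc2 and the position of Wnt3 were added after their values were seen. No test was run. The alternatives varied the joining, length and overlap of regions, the flanks, the TSS and the genes used for ranking.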

Additional observations from a re-analysis of the deposited data

How the results depend on the processing

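The counts and medians of the members were recomputed 59 times, with 1 choice changed at a time except that matching on GC content also changed the number of genes compared, and 52 values stayed within 1.5 times the reported value; the other 7 follow. With any annotated transcript start as TSS, 17 members had a region over it in place of 11. With regions within 500 bp of each other joined, the median density fell to 0.140 regions per kb for ligands and 0.157 for receptors. With only regions of at least 600 bp it was 0.109 for ligands, 0.139 for receptors and 0.114 for effectors. Both settings leave fewer regions by construction. Without flanks the median covered share of receptors was 45.6% in place of 29.9%. For ligands it was 25.3% in place of 33.7%, a change within 1.5 times. The number of members at a covered percentile of 90 or more was 11 among 200 protein-coding or 100 genes nearest in length. With 50 genes nearest in GC content among the 1000 nearest in length, Fzd6 left that set, Fzd5 and Fzd8 entered it, and 20 of 42 percentiles left the 95% Wilson interval of the reported percentile. At the low end, Wnt10b stayed at 10 or less in each of these rankings (8.5 among protein-coding genes, 10 among 100 genes and 8 with GC matching). Fzd9 had a percentile of 11 among protein-coding genes, 6 among 100 genes and 14 with GC matching, where Apc and Axin2 reached 10. Which members other than Wnt10b lie at 10 or less therefore depends on that choice. No paired analysis was possible because the list does not separate the duplicates. Depth, unknown here, limits which regions could be called, so that a gene without a region is not shown to lack BRG1.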

Other observations

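4 pairs of Wnt genes lie next to each other, and BRG1 coverage between them differed. Between Wnt6 and Wnt10a, over 6196 bp, 2 regions covered 47.9% of the bases, although Wnt6 itself had no region in its body. Between Wnt9b and Wnt3, over 24328 bp, 5 regions covered 45.3%. Between Wnt3a and Wnt9a the share was 5.75% of 16175 bp, and between Wnt10b and Wnt1 9.99% of 11706 bp. The median region at members was 660 bp long (480 regions), against 600 bp in the whole list. It was 750 bp at ligands, 720 bp at receptors and 570 bp at effectors. Regions of at least 10 kb numbered 3 at members (0.625%, against 0.452% of the whole list), at Wnt2b, Wnt5a and Fzd3.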
